A study of Homo sapiens with 16 samples.

Results

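The genes described here encode the proteasome: the subunits of its 20S core particle, the subunits of its 19S regulatory particle, and the PSM-named activators, inhibitor and assembly chaperones. They were taken from the RNA-seq table by symbol, as every gene named PSMA, PSMB, PSMC, PSMD, PSME, PSMF or PSMG followed by a number, without the interferon-inducible genes PSMB8, PSMB9, PSMB10, PSME1 and PSME2. This gave 41 of the 12676 genes in the table, of which 14 belong to the 20S core, 17 to the 19S particle and 10 to the remaining group. The testis-specific and thymus-specific core genes PSMA8 and PSMB11 are not listed in the table. The rule itself reads only symbols.

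The proteasome degrades proteins that carry a ubiquitin chain. Its barrel-shaped 20S core is built from outer rings of alpha subunits, which gate the entry, and inner rings of beta subunits, of which PSMB5, PSMB6 and PSMB7 cut the peptide chain. The 19S particle caps the core: its lid and ubiquitin receptors hold and deubiquitinate the substrate, and the ATPase ring of its base unfolds it. Each particle is assembled with dedicated chaperones that leave or are degraded when assembly is complete, and transcription of the subunit genes can be raised by NFE2L1 (NRF1), a factor that binds antioxidant response elements in their promoters. Dividing tumour cells rely on the proteasome to remove cyclins and misfolded proteins.

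RNA-seq was performed on H1299, a line from a human lung carcinoma of the non-small cell type, with 2 libraries from cells infected with a control shRNA (shNT) and 2 from cells infected with an shRNA against YEATS2 (shYEATS2), a histone acetyl-lysine reader of the ATAC acetyltransferase complex. Both groups received pLKO lentivirus with polybrene at 8 µg/ml for 48 h. They were then selected with puromycin at 2 µg/ml for 4 to 7 days according to the labels, so that infection and selection were shared by knockdown and control. The methods of the study give a shorter selection, of at most 4 days. The knockdown libraries are pools of infected cells carrying 1 hairpin that the labels do not name. The study states that its duplicate RNA-seq used the YEATS2 shRNA with efficient knockdown. It also reports RNA-seq with an independent, partly effective shRNA, which shared a part of the downregulated genes. In the libraries used here, effects of the hairpin on other transcripts cannot be told apart from loss of YEATS2. Nothing in the labels ties the replicates to separate cultures, whereas the study describes them as independent biological replicates, and p-values measure only the spread between these libraries.

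The listed genes received 34718921 to 39417787 reads per library, and the biological coefficient of variation in the fit was 0.107. YEATS2 counted 4482 and 4104 scaled reads in shNT and 665 and 673 in shYEATS2, a log2 fold change of -2.68 (SE 0.10). Scaled reads are counts divided by the TMM-corrected library size and brought to the mean size of the 4 libraries. Of the cell type markers described here, KRT8, KRT18 and VIM were abundant, between 7983 and 114660 scaled reads, and KRT19, EPCAM, PTPRC and PECAM1 are not among the listed genes, each of which has at least 101 reads in some library. KRT18 counted 20088 and 18402 scaled reads in shNT and 13903 and 7983 in shYEATS2, a log2 fold change of -0.81 (SE 0.24, edgeR quasi-likelihood FDR 0.0283, exactTest FDR 0.000371), and VIM and KRT8 had -0.37 and 0.31 (edgeR FDR 0.039 and 0.0958). The part of these shifts in the results below was not tested. In bulk RNA, a lower count cannot be told apart from fewer cells expressing the gene.

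The first question was whether proteasome genes moved with YEATS2 knockdown more or less often than other genes. Most did not pass the test. PSMD3, PSMG2 and PSMD10 fell and no proteasome gene rose, which makes 3 of 41 called, or 7.32%, at a false discovery rate (FDR) under 0.01 in the quasi-likelihood test of edgeR, adjusted over all genes by the Benjamini-Hochberg method. Of all 12676 genes, 25.3% were called, 12.5% lower and 12.9% higher. At an unadjusted p under 0.05, 12 of the 41 genes were lower and 3 higher, against 27.8% and 28.7% of all genes (15 of 41, or 36.6%, against 56.5% in either direction), so that the share of lower genes was near the background and the share of higher genes was below it. DESeq2 and edgeR's exactTest with TMM scaling each called 4 genes lower and 1 higher, the additional genes being PSMG4 and PSMD13. Of all genes, DESeq2 called 34.3% (17.3% lower, 17.0% higher) and this exactTest 38.7% (18.9% lower, 19.8% higher). The study used exactTest and does not state its scaling. On total counts, exactTest called 6 of the 41 genes and 5106 of all 12676. PSMB1, PSMD13 and PSME4 were then higher, PSMD3, PSMG2 and PSMG4 lower, and PSMD10 was not called. Below, exactTest means TMM scaling unless total counts are named.

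The sizes of the changes were small as well. The 41 log2 fold changes had a median of -0.09, an interquartile range of -0.27 to 0.09 and an SD of 0.33, and the same values over all genes were -0.0019, -0.35 to 0.38 and 0.67. A change of at least 0.5 on the log2 scale was seen in 4 of 41 proteasome genes (9.76%), namely PSMD3, PSMG2, PSMG4 and PSMD13, and in 36.7% of all genes. Since proteasome genes are well expressed, with mean scaled reads from 813.5 to 25633, the comparison was repeated among the 6996 genes with a mean of at least 1000. Here 4 of 39 proteasome genes (10.3%) passed the 0.5 limit, against 31.6% of all such genes, and 3 of 39 (7.69%) were called, against 28.9%. The knockdown libraries did not overlap with the controls in 27 of 41 proteasome genes (65.9%) and in 79.6% of all genes. They lay below in 16 proteasome genes (39.0%) and 39.8% of all genes, and above in 11 (26.8%) and 39.7%.

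**Figure D1:**
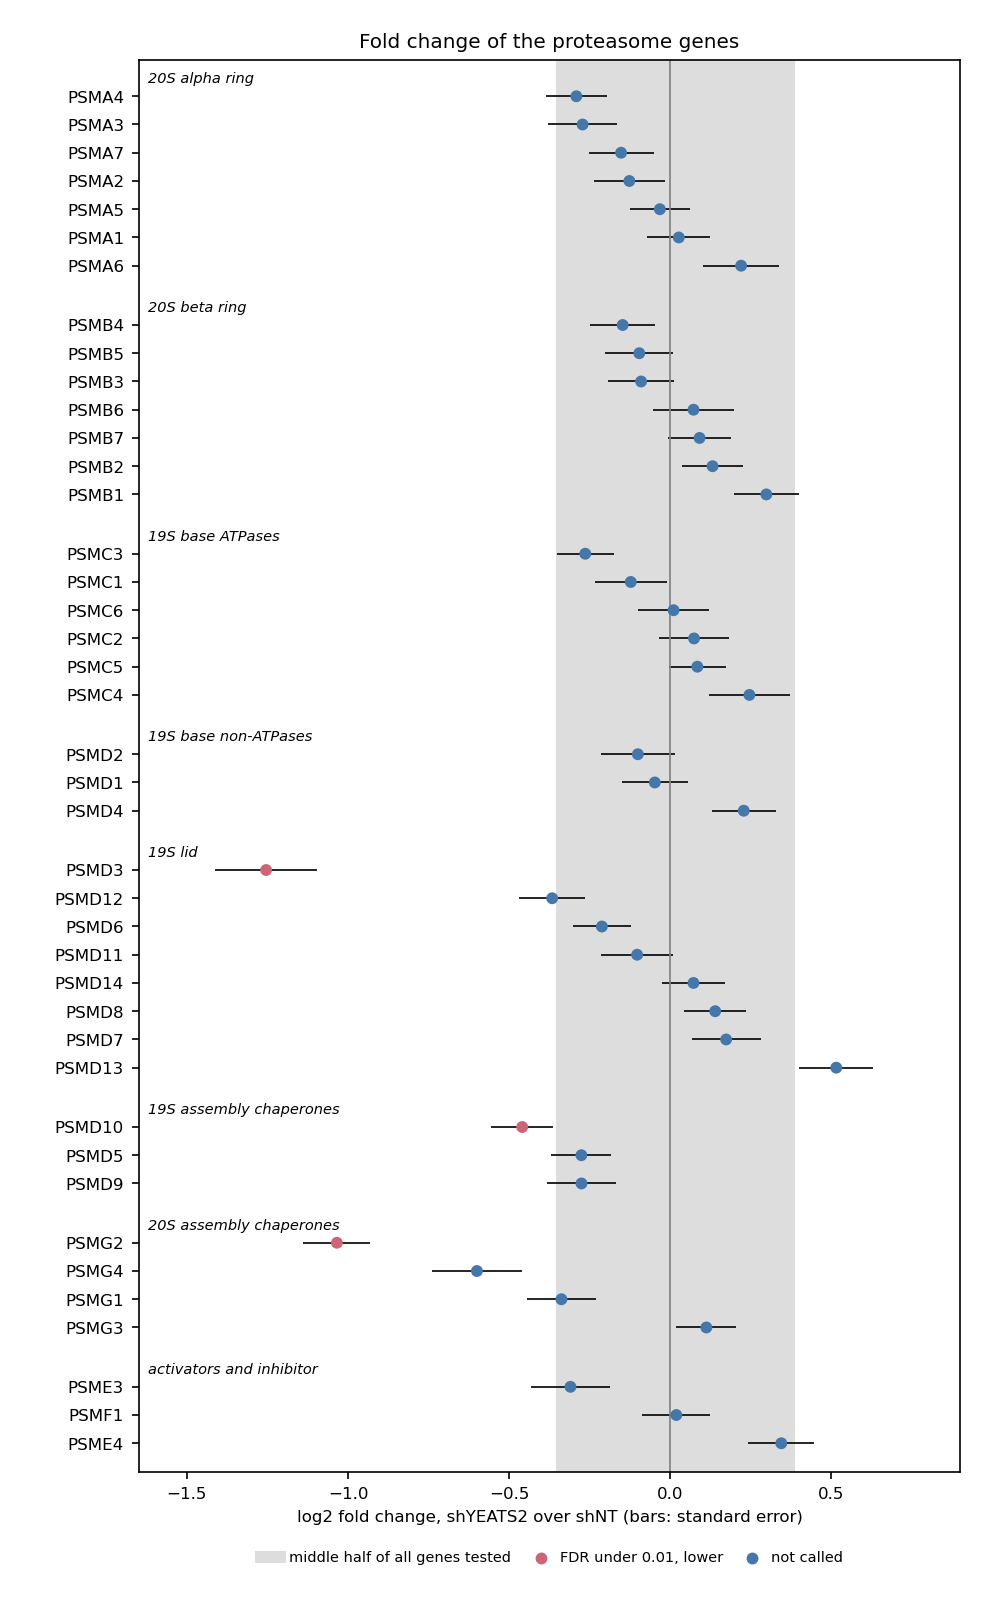
Log2 fold change, shYEATS2 over shNT, of the 41 proteasome genes by structural group; points are the fitted values, bars their standard errors, and the grey band is the interquartile range of all 12676 genes. PSMD3 and PSMG2 lie farthest to the left, PSMD10 is the other called gene, and all 14 core genes lie inside the band.

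Core and regulatory particle were then set side by side. In the 20S core, 0 of 14 genes passed the FDR of 0.01 in the quasi-likelihood test, in exactTest with TMM scaling or in DESeq2, and at an unadjusted p under 0.05 there were 2 lower genes (PSMA3 and PSMA4) and 1 higher gene (PSMB1). PSMB1 was called higher when exactTest was run with total counts and under quantile normalization. The median log2 fold change of the core was -0.06, from -0.29 in PSMA4 to 0.30 in PSMB1. In the 19S particle, 1 of 17 genes passed (PSMD3, lower), the median was 0.01, and values ran from -1.25 in PSMD3 to 0.51 in PSMD13. The medians differed by -0.07 (core minus regulatory particle), a description with no test. This difference was 0.03 without shNT replicate 2, and the 19S median itself was 0.10 without shNT replicate 1 and -0.10 without shNT replicate 2, so the sign of the difference depended on 1 control library.

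Summed over its genes, each particle had about the same transcript level in both groups. The 20S core summed to 89357 and 86990 scaled reads per kilobase of transcript in shNT and to 85969 and 94834 in shYEATS2, and the lowest and the highest value were both knockdown libraries. The 19S particle summed to 98189 and 88773 in shNT and to 98053 and 95105 in shYEATS2, and here the knockdown libraries lay between the controls. The knockdown means were 103% of shNT for both particles. In the core, PSMB1 alone gave 18574 of the shNT mean of 88173 and 22836 of the shYEATS2 mean of 90402. Of the 14 core genes, 8 had log2 fold changes below zero and 6 above. In the 19S particle, 8 of 17 genes lay below zero and 9 above. There PSMD8 gave 16072 of the shNT mean of 93481 and 17701 of the shYEATS2 mean of 96579. PSMD3, which fell, gave 3438 and 1442. The sums thus weight genes by abundance and by the canonical transcript length used. The ratio of core to regulatory level was 0.910 and 0.980 in shNT and 0.877 and 0.997 in shYEATS2, again with the knockdown libraries on either side of the controls.

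**Figure D2:**
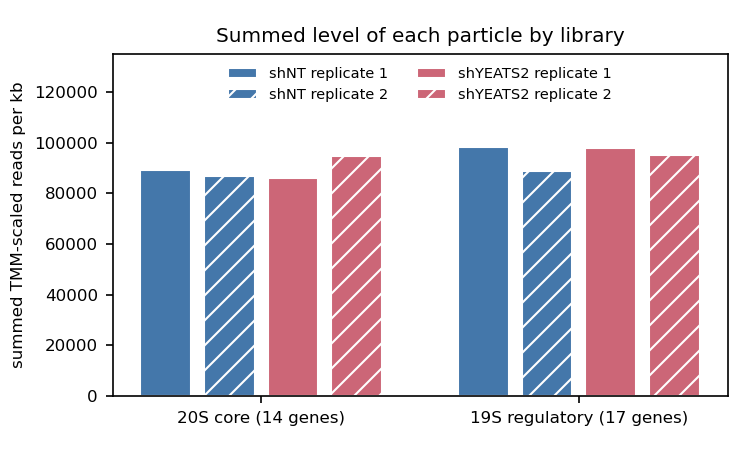
Summed TMM-scaled reads per kilobase of the 14 core genes and the 17 regulatory particle genes in each of the 4 libraries; each bar is 1 library. Core sums run from 85969 to 94834 and regulatory sums from 88773 to 98189, and the groups overlap in both particles.

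Within the alpha ring, whose subunits form the gate of the core, PSMA4 had the lowest fold change. It counted 7163 and 6699 scaled reads in shNT and 5835 and 5491 in shYEATS2, a log2 fold change of -0.29 (SE 0.09, edgeR FDR 0.0406). PSMA6 had the highest, with 904 and 793 scaled reads in shNT and 951 and 1025 in shYEATS2, a log2 fold change of 0.22 (SE 0.12, edgeR FDR 0.161). The knockdown libraries lay below both controls in 4 alpha genes (PSMA2, PSMA3, PSMA4 and PSMA7), above both in PSMA6, and overlapped with them in PSMA1 and PSMA5. Over all genes, 39.8% lay below and 39.7% above.

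The catalytic beta subunits stayed within 0.10 of zero. PSMB5, the chymotrypsin-like subunit and main target of bortezomib, counted 5934 and 5773 scaled reads in shNT and 5071 and 5880 in shYEATS2 (log2 fold change -0.10, SE 0.11, edgeR FDR 0.474). PSMB6, the caspase-like subunit, counted 7531 and 7803 in shNT and 7138 and 8980 in shYEATS2 (0.07, SE 0.13, edgeR FDR 0.658). PSMB7, the trypsin-like subunit, counted 15073 and 13647 in shNT and 15070 and 15518 in shYEATS2 (0.09, SE 0.10, edgeR FDR 0.463). In all 3 genes the groups overlapped, and standard errors of 0.10 to 0.13 leave shifts of that size undetected.

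Of the structural beta subunits, PSMB4 was lowest and PSMB1 highest. PSMB4 counted 10051 and 10213 scaled reads in shNT and 8584 and 9706 in shYEATS2, a log2 fold change of -0.15 (SE 0.10, edgeR FDR 0.257). PSMB1 counted 16728 and 16370 in shNT and 19173 and 21521 in shYEATS2, a log2 fold change of 0.30 (SE 0.10, edgeR FDR 0.045), with both knockdown libraries above both controls. PSMB1 was also the most abundant core gene per kilobase, with a mean of 20705 scaled reads per kilobase over the 4 libraries, and PSMA2 the least, with 567.

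In the base of the 19S particle no gene passed the test. At an unadjusted p under 0.05, 1 of its 9 genes was lower and none higher, against 27.8% and 28.7% of all genes, and DESeq2 and exactTest with TMM scaling called none of them, against 34.3% and 38.7%. Among the ATPases that unfold substrates, PSMC3 (RPT5) was lowest with 9450 and 9475 scaled reads in shNT and 7973 and 7789 in shYEATS2, a log2 fold change of -0.26 (SE 0.09, edgeR FDR 0.0455). PSMC4 (RPT3) was highest with 20660 and 16943 in shNT and 23448 and 21130 in shYEATS2, a log2 fold change of 0.25 (SE 0.12, edgeR FDR 0.142). Knockdown libraries were below both controls for PSMC3 and above both for PSMC4.

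The non-ATPase subunits of the base bind ubiquitin and shuttle proteins. PSMD2 (RPN1) counted 27247 and 23779 scaled reads in shNT and 25328 and 22258 in shYEATS2, a log2 fold change of -0.10 (SE 0.11, edgeR FDR 0.491), and its groups overlapped. PSMD4 (RPN10), a ubiquitin receptor, counted 8806 and 8285 in shNT and 9513 and 10503 in shYEATS2, a log2 fold change of 0.23 (SE 0.10, edgeR FDR 0.0972), with no overlap.

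The lid had an SD of 0.53 over the log2 fold changes of its 8 genes, with PSMD3 and PSMD13 at its ends, against 0.16 to 0.18 in the alpha ring, the beta ring, the ATPases and the other base subunits. The SD was 0.48 in the 20S assembly chaperones, 0.33 in the activators and inhibitor and 0.11 in the 19S assembly chaperones. PSMD3 (RPN3), a scaffold subunit of the lid at chr17:38137060-38154212 (hg19, plus strand), counted 7827 and 6937 scaled reads in shNT and 3568 and 2622 in shYEATS2. Both knockdown libraries were far below both controls, and the level was 41.9% of shNT (log2 fold change -1.25, SE 0.16, edgeR FDR 0.00184). PSMD3 was called in all 13 alternative settings that could have ended the call, with log2 fold changes from -1.49 to -1.05. Per kilobase, it ranked 4 among the 8 lid genes in shNT and 7 in shYEATS2. No other listed gene overlaps PSMD3, and no protein-coding gene overlaps it on its own strand.

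PSMD13 (RPN9), another lid subunit, lay at the opposite end. It is at chr11:236966-252984 on the plus strand and counted 5158 and 4416 scaled reads in shNT and 6483 and 7198 in shYEATS2, with both knockdown libraries above both controls. The log2 fold change was 0.51 (SE 0.11) and the edgeR FDR 0.0112, just outside the threshold. At an FDR under 0.01, PSMD13 passed in 9 of the 13 alternative settings, DESeq2 and exactTest among them.

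The remaining lid genes did not pass the test. PSMD12 (RPN5), a scaffold subunit like PSMD3, had a log2 fold change of -0.37 (SE 0.10, edgeR FDR 0.0248). PSMD14 (RPN11), the deubiquitinase of the lid, had 0.07 (SE 0.10, edgeR FDR 0.565), and its partner PSMD7 (RPN8) had 0.17 (SE 0.11, edgeR FDR 0.216). PSMD6, PSMD8 and PSMD11 lay between -0.21 and 0.14. The subunits of 1 lid, which are present in the assembled particle in equal numbers, thus ran from 41.9% to 143% of shNT at the transcript level.

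**Figure D3:**
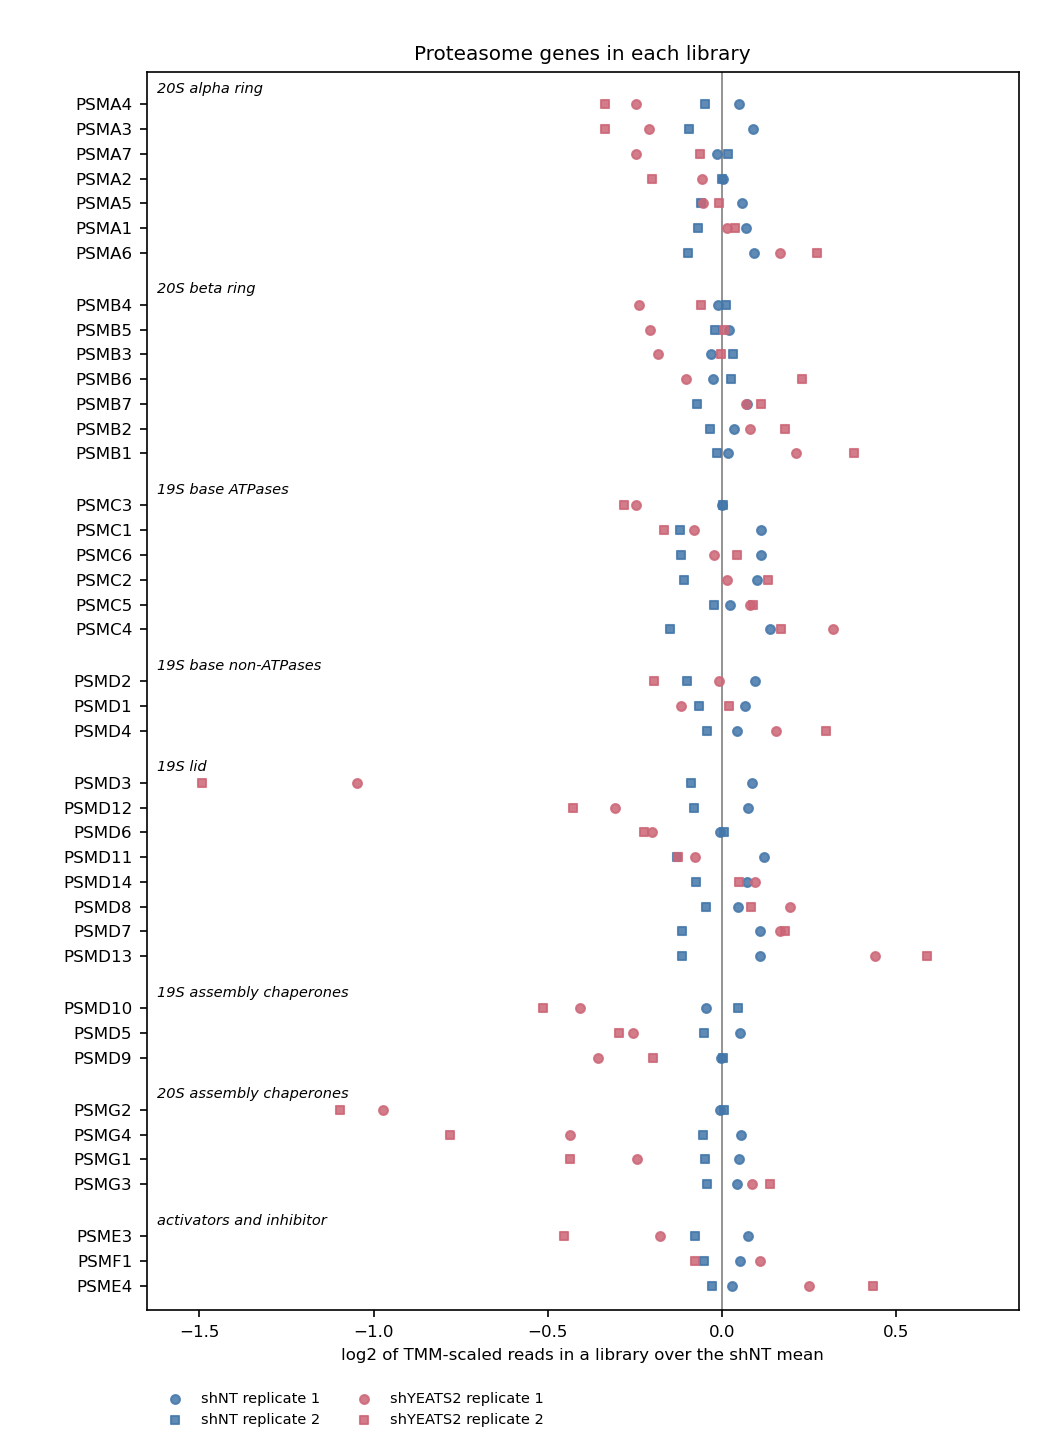
Scaled reads of the 41 proteasome genes in each library, as log2 of the ratio to the shNT mean; circles are replicate 1 and squares replicate 2, blue for shNT and red for shYEATS2. For PSMD3 and PSMG2 both knockdown libraries stand well apart from the controls, and for the catalytic genes PSMB5, PSMB6 and PSMB7 the groups overlap.

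Of the 7 PSM-named assembly chaperones, PSMG2 and PSMD10 passed the test, both lower. Of all genes, 12.5% were called lower and 25.3% in either direction. At an unadjusted quasi-likelihood p under 0.05, 3 of 3 chaperones of the 19S base and 3 of 4 of the 20S core were lower. None was higher, where 27.8% of all genes were lower and 28.7% higher. ExactTest and DESeq2 each called 1 of these 3 and 2 of these 4 lower, against 18.9% and 17.3% of all genes. PSMG3 had a value above zero and the other 6 values were below it, where 6350 of all 12676 genes lay below zero. No test of these genes as a group was made. Among the chaperones of the 20S alpha ring, PSMG2 (PAC2) at chr18:12658042-12728944 on the plus strand counted 1562 and 1573 scaled reads in shNT and 798 and 733 in shYEATS2. The controls were nearly equal and both knockdown libraries were far below them, at 48.8% of shNT (log2 fold change -1.03, SE 0.10, edgeR FDR 0.00116). PSMG2 was called in all 13 alternative settings that could have ended the call, with log2 fold changes from -1.10 to -0.92.

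PSMG1 (PAC1) forms a heterodimer with PSMG2. It counted 3129 and 2924 scaled reads in shNT and 2554 and 2236 in shYEATS2, with no overlap, and its log2 fold change was -0.34 (SE 0.11, edgeR FDR 0.038). The other heterodimer is that of PSMG3 (PAC3) and PSMG4 (PAC4). PSMG4 counted 1267 and 1176 in shNT and 902 and 711 in shYEATS2, without overlap, a log2 fold change of -0.60 (SE 0.14, edgeR FDR 0.0132). PSMG3 counted 2143 and 2016 in shNT and 2207 and 2287 in shYEATS2, a log2 fold change of 0.11 (SE 0.09, edgeR FDR 0.346), so the partners of this pair lay on opposite sides of zero, and whether their difference exceeds its error was not tested.

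Of the PSM-named chaperones of the 19S base, all 3 had knockdown libraries below both controls, as did 39.8% of all genes, and 1 passed the test. PAAF1, a further chaperone of the base, counted 845 and 776 scaled reads in shNT and 911 and 942 in shYEATS2, a log2 fold change of 0.19 (SE 0.11, edgeR FDR 0.179). PSMD10 (gankyrin), which binds the ATPase PSMC4 and is also known as an oncoprotein, is at chrX:107327437-107334779 on the minus strand. It counted 2157 and 2299 scaled reads in shNT and 1679 and 1561 in shYEATS2, a log2 fold change of -0.46 (SE 0.10, edgeR FDR 0.00936). This call was near the threshold. It was lost without shNT replicate 1, without shNT replicate 2 and without shYEATS2 replicate 2, and in 4 other settings that use total-count, upper-quartile or quantile scaling, with edgeR or limma FDR values up to 0.0653 over all settings. PSMD5 (S5b) and PSMD9 each had a log2 fold change of -0.28, with edgeR FDR values of 0.0462 and 0.0715, and PSMD9 counted 1188 and 1193 scaled reads in shNT and 930 and 1037 in shYEATS2.

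**Figure D4:**
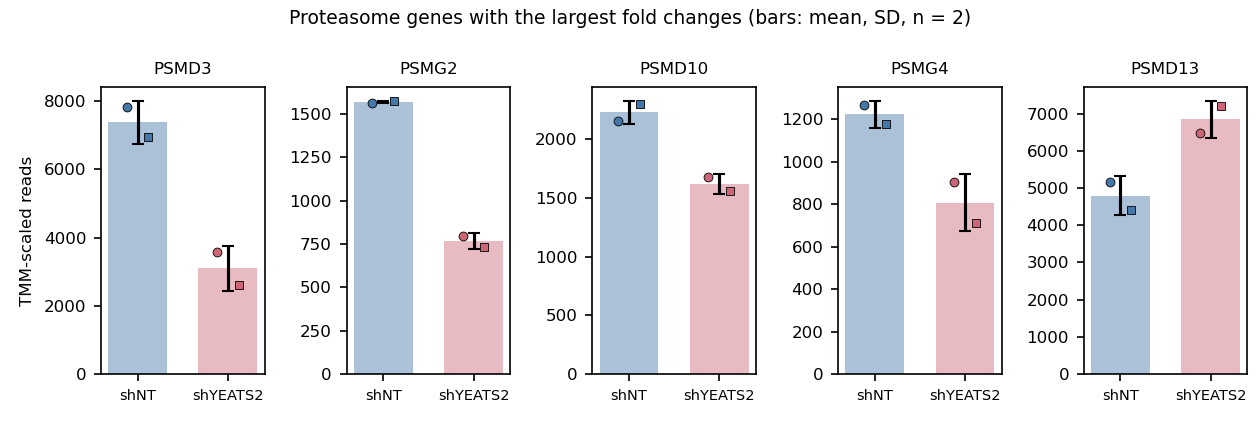
TMM-scaled reads of the 5 proteasome genes with the largest absolute log2 fold changes; bars are group means from 0, error bars SD (n = 2), circles replicate 1 and squares replicate 2. PSMD3 and PSMG2 are below 50% of shNT, and PSMD13 lies above its controls in both libraries.

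Of the alternative caps, PSME3 (PA28 gamma), the nuclear activator, counted 8527 and 7666 scaled reads in shNT and 7149 and 5916 in shYEATS2, a log2 fold change of -0.31 (SE 0.12, edgeR FDR 0.0744). PSME4 (PA200), which caps the core in nuclei and takes part in degradation of acetylated histones, counted 4761 and 4574 in shNT and 5551 and 6300 in shYEATS2, a log2 fold change of 0.34 (SE 0.10, edgeR FDR 0.03). PSMF1 (PI31), an inhibitor of the core in vitro, had 0.02 (SE 0.11, edgeR FDR 0.895). Knockdown libraries were below both controls for PSME3 and above both for PSME4, and the 10 genes of this group, chaperones included, had a median log2 fold change of -0.29.

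The interferon-inducible genes that were left out gave a median log2 fold change of 0.27, with none of the 5 called by the quasi-likelihood test. At an unadjusted p under 0.05, 2 of them were higher (PSME1 and PSME2), against 28.7% of all genes. ExactTest and DESeq2 each called 1 of the 5 higher, against 19.8% and 17.0% of all genes, which is a share near the background. PSME1, a subunit of the PA28 alpha-beta cap, counted 1760 and 2029 scaled reads in shNT and 2504 and 3096 in shYEATS2, a log2 fold change of 0.56 (SE 0.13, edgeR FDR 0.0144). The immunoproteasome genes PSMB8, PSMB9 and PSMB10 had values of 0.14, 0.23 and 0.27.

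Other genes of the ubiquitin-proteasome pathway were taken from a list of 35, of which 34 are in the table. In this list 3 genes fell (USP14, FAF2 and UBA6) and 2 rose (NFE2L1 and NFE2L2), 5 of 34 against 25.3% of all genes, and the median was 0.10. NFE2L1, the transcription factor that restores proteasome gene expression when the proteasome is inhibited, counted 15239 and 13533 scaled reads in shNT and 27842 and 31071 in shYEATS2. The knockdown libraries had 2.05 times the control level (log2 fold change 1.03, SE 0.11, edgeR FDR 0.00129), and the gene was called in all 13 alternative settings.

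NFE2L2 (NRF2), the related factor of the oxidative stress response, counted 5161 and 4657 scaled reads in shNT and 6586 and 6896 in shYEATS2 (0.46, SE 0.10, edgeR FDR 0.00994). Its call was lost without either shNT library and without shYEATS2 replicate 2, with edgeR FDR values up to 0.0919. NFE2L3 had 0.40 (SE 0.17, edgeR FDR 0.0974), and NGLY1 and DDI2, enzymes that process NFE2L1 protein to its active form, had 0.10 and 0.18 and were not called. Transcript counts do not measure how much processed NFE2L1 protein was present.

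USP14, a deubiquitinase that binds the 19S base, counted 8552 and 8342 scaled reads in shNT and 4725 and 4178 in shYEATS2, and fell by 0.92 on the log2 scale (SE 0.10, edgeR FDR 0.00135) with a call in all 13 alternative settings. FAF2, an adaptor of the segregase VCP at the endoplasmic reticulum, counted 7557 and 6607 in shNT and 4887 and 4326 in shYEATS2 (-0.62, SE 0.11, edgeR FDR 0.00569). UBA6, a ubiquitin-activating enzyme, counted 3229 and 3196 in shNT and 2317 and 2005 in shYEATS2 (-0.57, SE 0.11, edgeR FDR 0.0061). The FAF2 call was lost without shNT replicate 1 and without shYEATS2 replicate 2, and the UBA6 call without either of these, without shNT replicate 2 and with total-count scaling. POMP, the chaperone of the beta ring, had -0.34 (edgeR FDR 0.022), and the 19S deubiquitinase UCHL5 had -0.35 (edgeR FDR 0.0233).

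**Figure D5:**
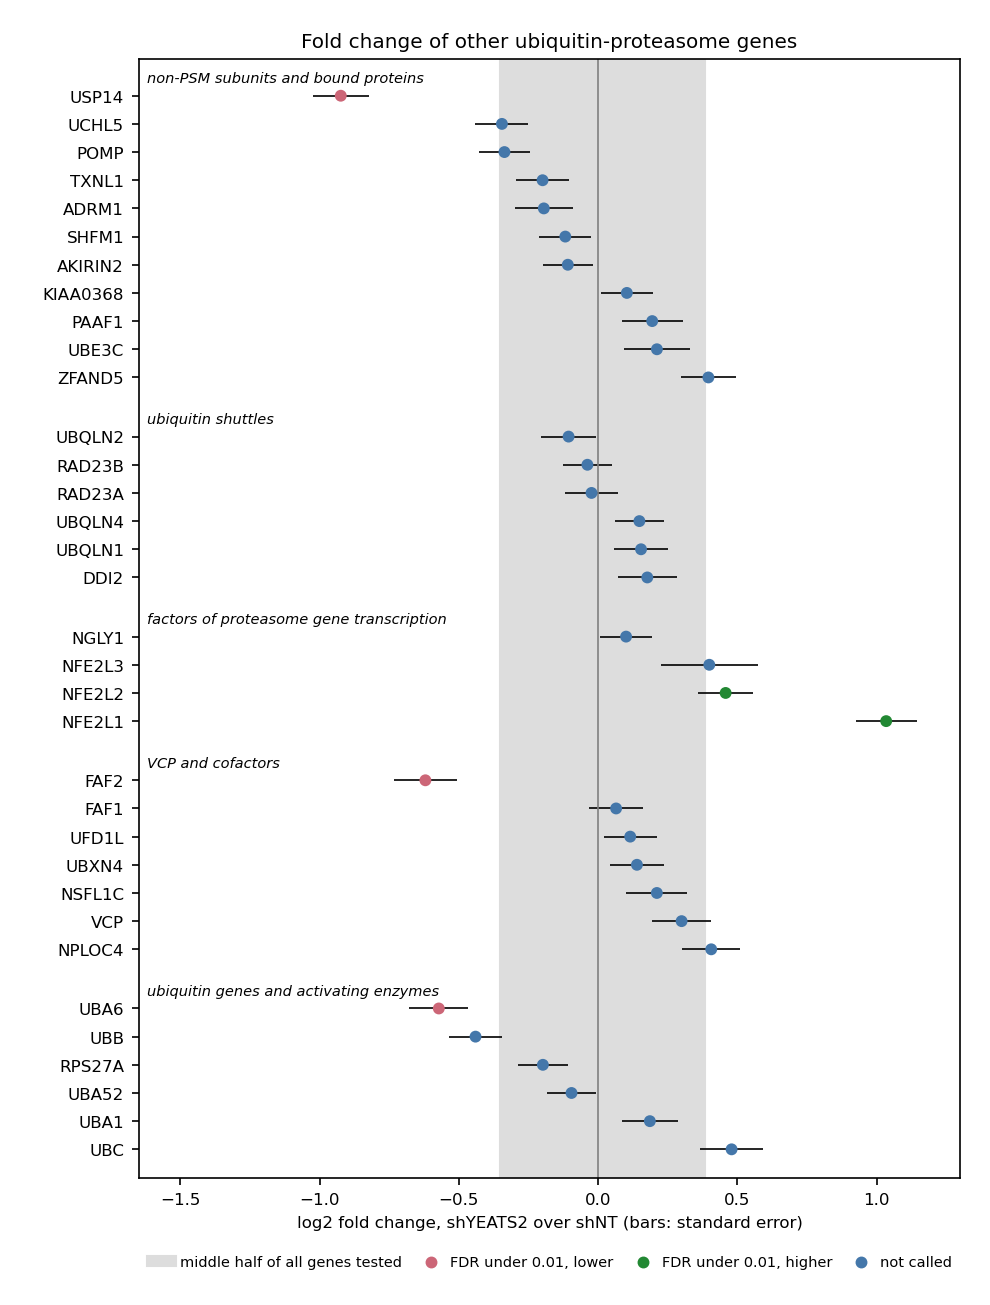
Log2 fold change, shYEATS2 over shNT, of 34 other ubiquitin-proteasome genes with standard errors; the grey band is the interquartile range of all genes. NFE2L1 (1.03) and NFE2L2 (0.46) are the called genes on the right, and USP14 (-0.92), FAF2 (-0.62) and UBA6 (-0.57) those on the left.

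Because NFE2L1 and NFE2L2 bind the antioxidant response element, the RefSeq promoter of each gene (GRCh38.p14, 250 bases before to 50 after the start) was searched on both strands for its core, TGACNNNGC. Promoters were matched for 35 of the 41 proteasome genes, and 12 of them held the core (34.3%), against 19.3% of 9085 promoters of the table. The following sites, written 5′ to 3′ with the core in capitals, show it in PSMD3 and PSMG2, which fell, and in 4 genes of both particles that were not called.
PSMD3 (chr17:39980762-39980786, plus strand): ccctttgtTGACTCGGCcatcggcc
PSMG2 (chr18:12658691-12658715, plus strand): gtttcccgTGACCCCGCggccgctc
PSMA4 (chr15:78540652-78540676, plus strand): gggcacgaTGACTCTGCaccgcctc
PSMB3 (chr17:38752629-38752653, plus strand): ctccgtttTGACTTTGCaaccaaac
PSMC5 (chr17:63827656-63827680, minus strand): ggcggcgcTGACACAGCagatccgg
PSMD12 (chr17:67366726-67366750, minus strand): acaaaaccTGACGCTGCaggctgga

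The 12 genes with the core had a median log2 fold change of -0.28 and those without it -0.10. They included PSMD3 and PSMG2 as well as PSME4, which had 0.34, while the promoters of PSMD10 and PSMD13 held no match in the window. Other motifs searched on both strands were CCAAT, in 18 of 35 proteasome promoters (51.4%) and 43.7% of all, the ETS motif CCGGAAG, in 14 (40.0%) and 23.3%, and the E-box CACGTG, in 3 (8.57%) and 13.0%. The median log2 fold change with and without the motif was -0.11 and -0.10 for CCAAT, 0.05 and -0.13 for CCGGAAG, and -0.28 and -0.10 for CACGTG, the same pair of values as for the antioxidant core. A match is a description of the letters and does not show that a factor binds.

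Several proteasome genes share their start region or their reads with a neighbour. PSMG2 starts 319 bp from CEP76 on the opposite strand, and CEP76 (log2 fold change -0.14, edgeR FDR 0.356) and SPIRE1 (-0.20, edgeR FDR 0.177), which also overlaps PSMG2, were not called. PSMD10 starts 236 bp from ATG4A, which counted 443 and 422 scaled reads in shNT and 622 and 628 in shYEATS2 (0.53, edgeR FDR 0.0108), a value of the opposite sign that did not pass the test. PSMD13 starts 634 bp from SIRT3, which had 0.11 (edgeR FDR 0.512).

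Overlap on opposite strands matters for the counts, since the library kit does not mark strand. PSMG3 overlaps PSMG3-AS1, which counted 212 and 205 scaled reads in shNT and 596 and 515 in shYEATS2 and rose (1.41, edgeR FDR 0.00118). PSME4 starts 120 bp from ACYP2 and overlaps it, and ACYP2 counted 323 and 333 in shNT and 696 and 900 in shYEATS2 and rose too (1.28, edgeR FDR 0.00169). PSMA3, PSMC1, PSMC2, PSMC5, PSMD5, PSME3, PSMG2 and PSMG4 also overlap a listed gene on the opposite strand, and none of those neighbours was called, with log2 fold changes from -0.40 (FTSJ3 at PSMC5) to 0.22 (RP11-349A22.5 at PSMA3). The values of all 10 genes are uncertain by reads that these neighbours may have added or taken away. The study states default HTSeq parameters, and how strand was handled in counting was not checked here. PSMA1, PSMA2, PSMA6 and PSMD9 overlap protein-coding readthrough genes on their own strand, so that shared reads may have gone uncounted. Their mean levels in shNT were 2482, 592, 829 and 437 scaled reads per kilobase, and PSMC2 also overlaps PMPCB on its own strand.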

How the data were processed

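The authors mapped H1299 RNA-seq reads to hg19 and deposited whole-number HTSeq read counts per gene, not normalized. The methods name the RNA-Seq unified mapper, and the submitters' processing notes list TopHat2 2.0.10, Bowtie2 2.1.0 and HTSeq 0.6.1p1. The authors' log2 fold change, p-value and FDR columns in the same table were not used. The 12 ChIP-seq samples were not analysed here.

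Libraries were grouped by their labels (2 shNT, 2 shYEATS2). All 12676 genes passed a filter of 10 reads in 2 or more libraries and were tested with edgeR 4.0.16 (R 4.3.3): TMM scaling, quasi-likelihood test, Benjamini-Hochberg adjustment over all genes, FDR under 0.01. Alternatives were exactTest (the function the study names, here with TMM scaling or total counts), DESeq2 1.42.0 and limma 3.58.1 after quantile normalization. Other scalings and filters, a replicate block, an FDR of 0.05 and each library left out were further alternatives. Methods were tested on simulated data. The members and lists were chosen with earlier results of these data known.

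Values in every library are given for called genes, the catalytic subunits and the highest and lowest gene of each structural group. PSMG1 and PSMG4 were added as dimer partners, PSME1 as the highest gene of the left-out group, and neighbours by position, after their values were seen. GENCODE 44 on GRCh37 gave gene positions and canonical transcript lengths, with 12465 identifiers (98.3%) matched and PSMB3 matched by symbol. Motif shares carry no test. With 2 libraries a group, a value cannot go below p = 0.333 in an exact permutation test, so none was run. One marker of the line is not reported here.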

Additional observations from a re-analysis of the deposited data

How the results depend on the processing

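PSMD3 and PSMG2 remained called in all 13 alternative settings that could have ended a call. No filter repeated the 3211 calls, since all genes had passed the filter, and an FDR under 0.05 can only add calls. The count of genes called in the core was 1 lower and 1 higher at an FDR under 0.05, and 1 higher with exactTest on total counts and with quantile normalization. In the 19S particle 3 genes were called lower at an FDR under 0.05. There, 2 were called higher with quantile normalization and 1 with either exactTest, DESeq2, total counts, the upper quartile, a mean count of at least 100 or an FDR under 0.05. In the group of chaperones, activators and inhibitor, 1 gene was called lower with quantile normalization, upper-quartile scaling or total counts and 5 at an FDR under 0.05, and 1 was called higher with total counts, exactTest on total counts or an FDR under 0.05.

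With each library left out, the lone library being assumed to vary like the other group, the core kept 0 calls, the 19S particle had 1 lower and 0 to 1 higher, and the third group 1 to 3 lower. The core median then ran from -0.0787 to 0.003, the 19S median from -0.10 to 0.10 and their difference from -0.13 to 0.0253. All genes called ranged from 1625 without shNT replicate 1 to 3995 without shYEATS2 replicate 1, against 3211 with all libraries, 4349 by DESeq2, 4909 by exactTest and 6104 at an FDR under 0.05.

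Total counts moved the median of all genes by 0.12 on the log2 scale and the medians of core and 19S particle to 0.0583 and 0.13, and exactTest on total counts gave the same values. Quantile normalization gave -0.0087 and 0.15, a difference of -0.16, and removing the trend with transcript length and mean count gave 0.077 and 0.15. The replicate numbers mark no shared source in the labels. Deviations of log2 counts from the group mean correlated at 0.402 between shNT replicate 1 and shYEATS2 replicate 1. With 2 libraries a group, the replicate 2 pair gives the same value by construction. The replicate block called 2 genes lower and 1 higher in the 19S particle, 4 lower in the third group and 5457 of all genes. The cause of these differences was not tested. Depth limits little here, since the lowest proteasome gene had a mean of 813.5 scaled reads, and the number of libraries limits the standard errors.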

Other observations

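The 3′ UTRs of the proteasome genes were also read for the 7-base words AAGTTCA and CAAGTTC, which were chosen because earlier results of these data had pointed to them. At least 1 of these words was present in the 3′ UTR of 19.1% of 11391 genes with an annotated one. Of the genes with a word, 20.2% were called lower, against 11.5% of the genes without either word. Since the words were chosen from these same data, this difference is no independent evidence for them. Among the proteasome genes 4 of 41 (9.76%) held a word, namely PSMB2, PSMD8, PSMD12 and PSMF1, and their median log2 fold change was 0.07, against -0.10 for the others. The 3′ UTRs of PSMD3, PSMG2 and PSMD10, the genes that fell, held neither word. They are 378, 209 and 767 bases long, against 434 to 7166 bases in the 4 genes with a word. The length of the 3′ UTR was not taken into account in any of these shares.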
